A study of Sus scrofa with 12 samples.

Results

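AP-1 is a family of dimeric transcription factors, and its subunit genes FOS, FOSB, FOSL1, FOSL2, JUN, JUNB, JUND and ATF3 were followed here in 12 RNA sequencing libraries of pig induced pluripotent stem cells. The 8 genes were taken by name as subunits of AP-1, with earlier results of these data known, and were looked up among the 24358 genes of each of 2 tables. Of these, 6 carried their symbol in both tables. JUN was left without a symbol there and was found through its Ensembl identifier, ENSSSCG00000031912, which a separate table of identifiers pairs with JUN. JUND was paired with no row and was not analysed here.

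Each group held 3 libraries. WT PC-iPS are induced pluripotent stem cells made from pig pericytes, a mural cell of small vessels, and carry no insertion at NANOG. NANOG tdTomato knock-in positive PC-iPS were made from them with CRISPR/Cas9 and carry FLAG, P2A, tdTomato and a puromycin resistance cassette at the NANOG loci; they were selected with puromycin and sorted for tdTomato. The 3 knock-in lines were mixed cultures rather than clones, in which cells could carry the insertion on different alleles or not at all. The other two groups were knock-in positive cells given either Activin A, a ligand that signals through SMAD2/3, or SB431542, an inhibitor of the Activin and TGF-β receptors. The labels give LCDMV (LIF, CHIR99021, dimethindene, minocycline and vitamin C) as the medium of all cells, whereas the study describes its cytokine experiments in T1, which is LCDMV without LIF; the dose and length of treatment of these sequenced cells, and whether they had been grown on feeder cells, are not given in the sources used here. The labels give 1 preparation for all 12 libraries, in which cells were dissociated and feeder cells left behind in a short plating step before RNA was extracted.

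AP-1 proteins bind DNA through a basic region next to a leucine zipper. Proteins of the JUN family pair with each other or with partners from the FOS and ATF families, whereas FOS proteins need a JUN partner. FOS, FOSB and JUN are textbook immediate-early genes, transcribed within minutes of a growth factor signal or a stress through serum response factor and MAP kinases, and their messages are short lived. FOSL1 (Fra-1) and FOSL2 (Fra-2) usually follow later and last longer. ATF3 is a stress-responsive partner of JUN.

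The authors gave expression in FPKM, which divides fragments by gene length and by how many were mapped in each library, so levels of different genes can be ranked against each other. FPKM carries no read number, and absolute depth is therefore unknown. Relative depth, read from the commonest ratio of values under 0.3 FPKM, was 0.574 to 0.637 in WT, 0.735 to 1 in knock-in, 0.862 to 0.983 in Activin A and 0.838 to 0.956 in SB431542 libraries, so low values were measured less finely in WT. NANOG, which carries the reporter, was 9.71, 16.4 and 27.6 FPKM in WT and 52, 101 and 70.4 FPKM in knock-in cells. With Activin A it was 109, 195 and 157 FPKM, and with SB431542 it was 11.8, 27.2 and 11.8 FPKM. SOX2, another pluripotency factor, was 39.1 to 45.7 FPKM in WT, 64 to 67.7 FPKM in knock-in, 56.9 to 69.9 FPKM with Activin A and 68 to 71.5 FPKM with SB431542; its difference of 0.60 in log2(FPKM + 1) between knock-in and WT (limma adjusted p = 0.0201) was under the threshold on size used below. LIN28A, an RNA-binding protein of pluripotent cells, was 32.8 to 47.6 FPKM in WT and 108 to 285 FPKM in knock-in (difference 2.08, limma adjusted p = 0.0184). It was 67.5 to 200 FPKM with Activin A and 192 to 498 FPKM with SB431542 (difference -1.55, limma adjusted p = 0.273 without and 0.015 with the replicate number as a block). The 8 pluripotency markers with a row summed to 105 to 132 FPKM in WT, 265 to 490 FPKM in knock-in, 279 to 490 FPKM with Activin A and 298 to 628 FPKM with SB431542, and their part in the levels of AP-1 genes was not tested. TDGF1 was listed at 0 in 9 of 12 libraries, and POU5F1 was not analysed here. In whole cultures such as these, fewer cells of one type and less RNA per cell cannot be told apart.

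JUN and FOS dominated among the 7 members with a row, and JUND could not be ranked. JUN was the highest member in 11 of 12 libraries and FOS in the other one, WT library 1, and these genes took the first and second rank in every library. JUN, the main DNA-binding partner of the family, stood at 33.9, 17 and 34.3 FPKM in WT libraries 1, 2 and 3, at 109, 137 and 118 FPKM in knock-in, at 171, 218 and 206 FPKM with Activin A and at 105, 111 and 123 FPKM with SB431542. FOS stood at 51, 13.6 and 3.5 FPKM in WT, at 47.1, 69.3 and 48.2 FPKM in knock-in, at 111, 191 and 119 FPKM with Activin A and at 37.9, 51 and 38 FPKM with SB431542. JUN thus had no overlap between WT and the other cells, whereas the range of FOS in WT reached into those of knock-in and SB431542.

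The remaining members with a row were lower. FOSB, a close relative of FOS, was 1.79, 0.0857 and 0 FPKM in WT and 13.6, 20.3 and 14.9 FPKM in knock-in. It was 25.5, 34 and 29.3 FPKM with Activin A and 7.89, 8.67 and 14.8 FPKM with SB431542. ATF3 was 4.71, 1.45 and 1.99 FPKM in WT, 15.7, 31.2 and 12.7 FPKM in knock-in, 16.7, 29.4 and 13.7 FPKM with Activin A and 20.4, 43.8 and 17.1 FPKM with SB431542. In each of these last 3 groups, library 2 was the highest for ATF3 and library 3 the lowest.

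FOSL1 was 4.23, 3.89 and 0.283 FPKM in WT, 8.42, 6.79 and 7.45 FPKM in knock-in, 7.34, 6.76 and 7.6 FPKM with Activin A and 7, 6.36 and 6.35 FPKM with SB431542. FOSL2 was 0.361, 0.661 and 0.352 FPKM in WT, 5.29, 5.11 and 4.57 FPKM in knock-in, 5.38, 4.62 and 4.46 FPKM with Activin A and 5.51, 6.18 and 5.06 FPKM with SB431542. Both Fra genes were therefore lowest in WT and almost level over the other 3 groups. JUNB was listed at 0 in 10 of 12 libraries and at 0.0563 and 0.0421 FPKM in knock-in library 2 and Activin A library 2. It was below the filter on low values in both comparisons, so 6 members were tested in each.

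**Figure D1:**
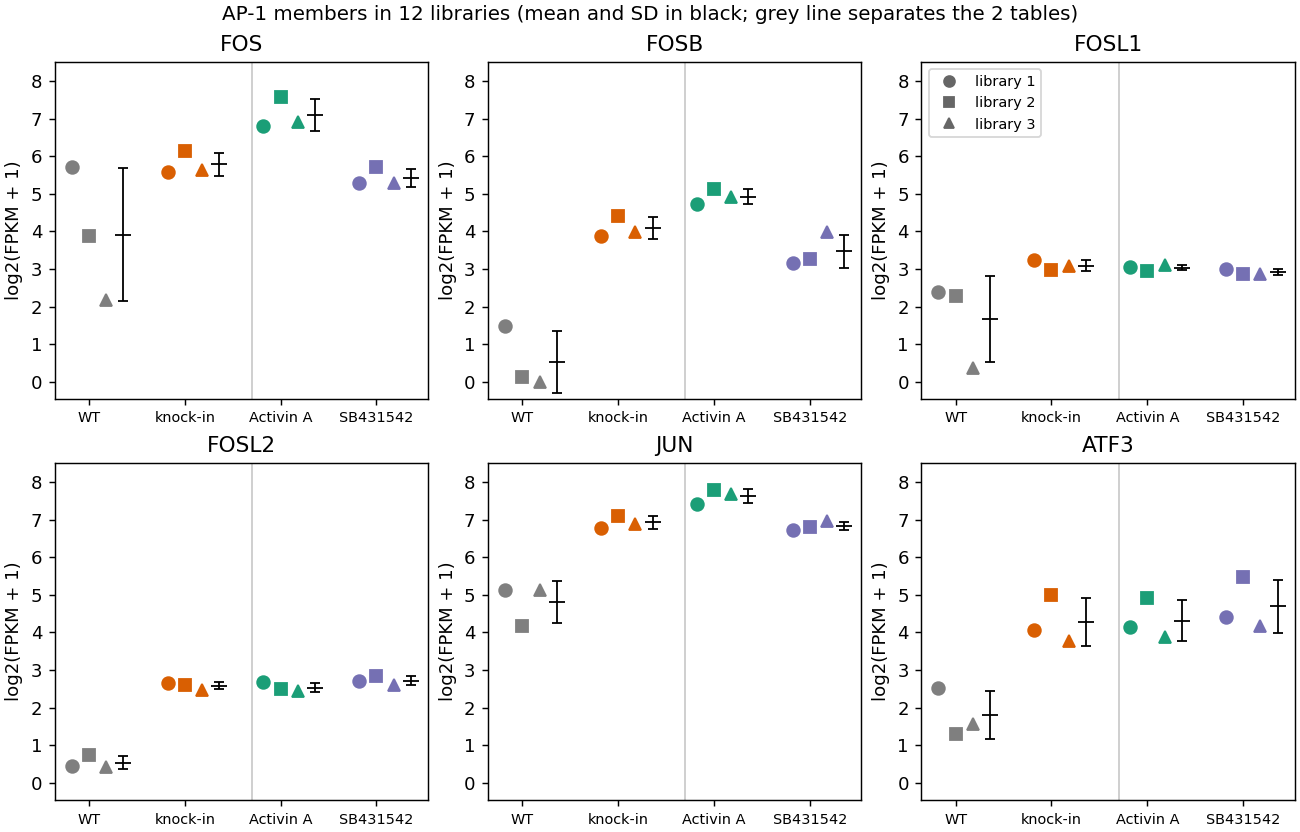
Level of each tested member as log2(FPKM + 1) in WT, knock-in, Activin A and SB431542 libraries; symbols mark libraries 1 to 3, and black bars give the mean and SD of each group. FOS ranged from 3.5 to 51 FPKM over the WT libraries, while FOSL2 was between 0.352 and 0.661 FPKM in WT and between 4.46 and 6.18 FPKM elsewhere.

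The order of the groups differed between members. Levels in the first table (WT and knock-in) and the second (Activin A and SB431542) are set side by side here, with no test between the tables. For FOS, FOSB and JUN the 3 Activin A libraries lay above all others, knock-in and SB431542 overlapped, and for FOSB and JUN WT lay below. For FOSL1 and FOSL2, knock-in, Activin A and SB431542 overlapped one another and WT lay below them all. ATF3 had the same arrangement as the Fra genes, with its highest value in SB431542 library 2.

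Coordinates are those of RefSeq on Sscrofa11.1, the assembly to which the reads had been aligned. FOS (ENSSSCG00000002383) lies on chromosome 7 from 98449508 to 98451971, and FOSB (ENSSSCG00000031616) on chromosome 6 from 51836780 to 51844531. JUN is on the same chromosome as FOSB, far from it, from 153686425 to 153687635. FOSL1 (ENSSSCG00000012967) lies on chromosome 2 from 6430158 to 6436173, as do JUNB (ENSSSCG00000013735, 66214086 to 66219435) and JUND (59530991 to 59532846). FOSL2 (ENSSSCG00000032527) lies on chromosome 3 from 110820403 to 110842903 and ATF3 (ENSSSCG00000015595) on chromosome 9 from 130772259 to 130829678. Values are sums over whole genes, so exons and transcript forms were not told apart.

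The first comparison asked how knock-in positive cells differed from WT. FOSB, ATF3, JUN and FOSL2 were higher in knock-in positive cells, by 25.9-fold, 7.32-fold, 4.25-fold and 10.9-fold as ratios of the group means. The ratio of FOSB rests on WT library 1, which holds most of its WT mean: it was 379 without that library and 17.3 to 28 without any other one. The ratio of ATF3 was 11.6 without WT library 1. FOS and FOSL1 did not pass the test. To be called, a gene had to differ by 1 or more in log2(FPKM + 1), in either direction, with an adjusted p no higher than 0.05 (limma, two-sided, Benjamini-Hochberg over 14014 genes). Of the 6 members tested, 4 were called higher and 0 lower, against 1.61% of all genes called higher and 0.706% called lower. The knock-in libraries lay above all WT libraries for 5 of the 6, as they did for 19.0% of all genes. The median log2 fold change of the members was 2.08 and that of all genes was -0.001.

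On the log2(FPKM + 1) scale, FOSB rose by 3.56 (standard error 0.39, limma adjusted p = 0.00625). FOSL2 rose by 2.04 (standard error 0.14, limma adjusted p = 0.00129) and had the smallest error of the members. JUN rose by 2.11 (standard error 0.26, limma adjusted p = 0.00928). ATF3 rose by 2.49 (standard error 0.40, limma adjusted p = 0.0199), but its call was lost without WT library 2 (adjusted p = 0.0522), without knock-in library 1 (0.0616) and without knock-in library 2 (an adjusted p that rounds to 0.05 and lay above the threshold). With a pseudocount of 0.01 in place of 1 the log2 fold changes of the lowest genes were larger, 7.06 for FOSB and 3.48 for FOSL2, and their calls stayed. The exact two-sided permutation test gave each of these genes p = 0.1, the smallest value that 3 libraries against 3 allow.

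FOS was 54.9 ± 12.5 FPKM (SD, n = 3) in knock-in and 22.7 ± 25 FPKM (SD, n = 3) in WT. The difference in log2(FPKM + 1), 1.87, had a 95% interval from 0.09 to 3.64 and a limma adjusted p of 0.158. This value rested on single WT libraries. Without WT library 1, where FOS was as high as in knock-in cells, it was 2.76, which passed the test (limma adjusted p = 0.0489). Without WT library 3, where it was lowest, it was 0.99 (limma adjusted p = 0.233). FOSL1 was 7.56 ± 0.818 FPKM in knock-in and 2.8 ± 2.19 FPKM in WT, with a log2 fold change of 1.41, a 95% interval from 0.24 to 2.58 and a limma adjusted p of 0.121. Without WT library 3 its log2 fold change was 0.75 (limma adjusted p = 0.0358), under the threshold on size.

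The second comparison asked how knock-in positive cells given Activin A differed from those given SB431542. FOS, FOSB and JUN had higher means with Activin A, by 3.32-fold, 2.83-fold and 1.76-fold, and for each of them all 3 Activin A libraries lay above all 3 SB431542 libraries, as was so for 9.19% of the 13999 genes tested. FOSL1 had a mean 1.1-fold higher with Activin A, while FOSL2 and ATF3 had means 1.16-fold and 1.36-fold higher with SB431542; without SB431542 library 2 the mean of ATF3 was 1.06-fold higher with Activin A. At the thresholds above, 0 of the 6 members were called, against 0.0571% of all genes called higher and 0.0357% called lower; 3 members had an unadjusted limma p under 0.05, as had 12.8% of all genes. The log2 fold changes were 1.68 for FOS (standard error 0.22, limma adjusted p = 0.0701), 1.46 for FOSB (0.23 and 0.0934) and 0.80 for JUN (0.11 and 0.0701).

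Libraries of the same number resembled each other in this comparison, and the fit with the replicate number as a block changed the calls. With the block, 2 members were called, FOS (standard error 0.08, limma adjusted p = 0.0107) and FOSB (standard error 0.18, limma adjusted p = 0.0343), both higher with Activin A; of all genes, 0.521% were called higher and 0.186% lower. JUN had a limma adjusted p of 0.0192 with the block, but its log2 fold change of 0.80 was below 1. Within numbers 1, 2 and 3, FOS was 2.93, 3.75 and 3.13 times as high with Activin A as with SB431542. The same ratios were 3.22, 3.92 and 1.99 for FOSB and 1.62, 1.97 and 1.68 for JUN.

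For the other members the intervals limit the size of any difference. FOSL1 differed by 0.12 on the log2(FPKM + 1) scale, with a 95% interval from -0.11 to 0.35, and FOSL2 by -0.18, with an interval from -0.46 to 0.10. ATF3 differed by -0.38, with an interval from -1.33 to 0.58 without the block and from -0.58 to -0.17 with it. The ratio of Activin A to SB431542 for ATF3 was 0.82, 0.671 and 0.803 in numbers 1, 2 and 3, lower in all 3, but its limma adjusted p was 0.0843 with the block and 0.73 without it. Whether the fold change of one member differed from that of another was not tested.

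**Figure D2:**
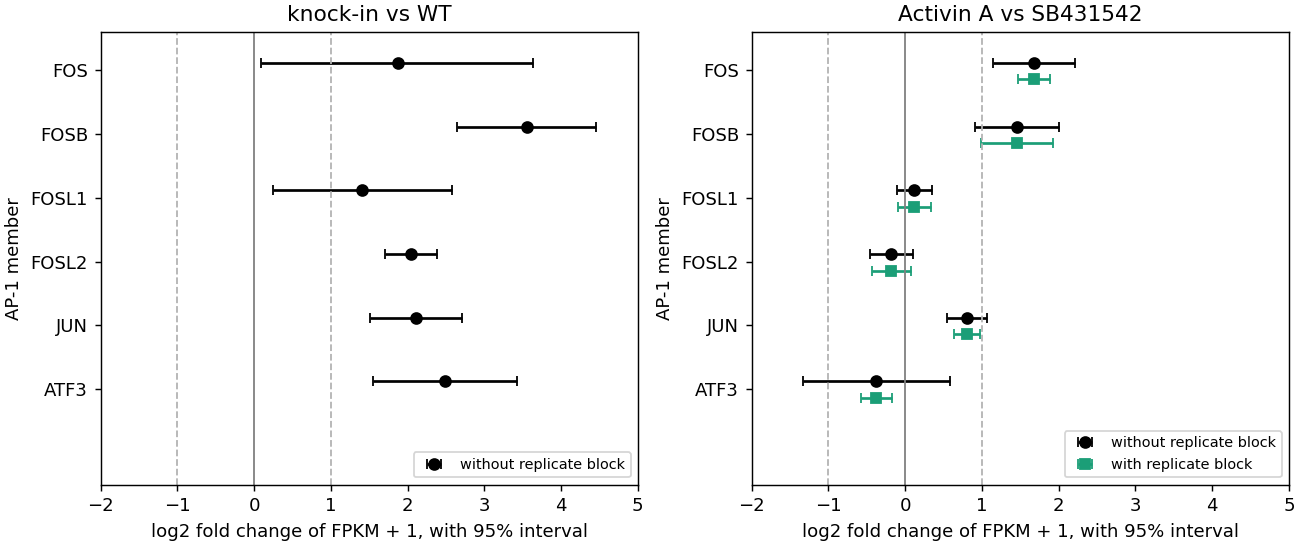
Log2 fold change of FPKM + 1 with its 95% interval for each member, knock-in against WT on the left and Activin A against SB431542 on the right, where green squares are the fit with the replicate number as a block; dashed lines mark -1 and 1. FOSB had the largest fold change on the left (3.56), and on the right FOS (1.68) and FOSB (1.46) lay above 1 while FOSL1 (0.12) and FOSL2 (-0.18) lay near 0.

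Because FPKM is scaled to length, the members were added up in each library. The 7 members with a row summed to 96.1, 36.8 and 40.5 FPKM in WT and to 199, 269 and 206 FPKM in knock-in. The sums were 337, 484 and 380 FPKM with Activin A and 184, 227 and 204 FPKM with SB431542. On average over log2 values the sum was 4.25-fold higher in knock-in than in WT and 1.94-fold higher with Activin A than with SB431542. Neither pair of groups overlapped, and each exact two-sided permutation test gave p = 0.1, the smallest value possible.

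JUN made up 50.7% to 57.3% of the sum in knock-in libraries, 45% to 54.2% with Activin A and 48.9% to 60.1% with SB431542. In WT its share was 35.3%, 46.4% and 84.9%. The share of FOS was 53.1%, 37.1% and 8.65% in the same WT libraries, against 23.4% to 25.7% in knock-in, 31.3% to 39.5% with Activin A and 18.7% to 22.5% with SB431542. WT libraries thus differed among themselves in which subunit led, whereas the libraries of each other group were close to one another. FOSB made up 6.86% to 7.52% of the sum in knock-in and at most 1.87% in WT. ATF3 reached its highest share, 19.3%, in SB431542 library 2.

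Within the FOS family (FOS, FOSB, FOSL1 and FOSL2), FOS took 88.9%, 74.6% and 84.6% in WT libraries 1, 2 and 3, 63.3% to 68.3% in knock-in, 74.2% to 80.8% with Activin A and 59.2% to 70.6% with SB431542. FOSL1 and FOSL2 together took 4.81% to 8.52% of that family with Activin A and 17.4% to 21.5% with SB431542. In knock-in they took 11.7% to 18.4%, and in WT 8%, 24.9% and 15.4%, a range that reached into that of Activin A and past that of SB431542. The ratio of the FOS family to JUN and JUNB was 0.874, 1.09 and 0.778 with Activin A and 0.554, 0.651 and 0.524 with SB431542, so these groups did not overlap (exact two-sided permutation test, p = 0.1). In knock-in it was 0.686, 0.742 and 0.637. In WT it ranged from 0.12 to 1.69, on both sides of every other group. JUND is not part of these sums, and JUNB added at most 0.0209% of any.

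**Figure D3:**
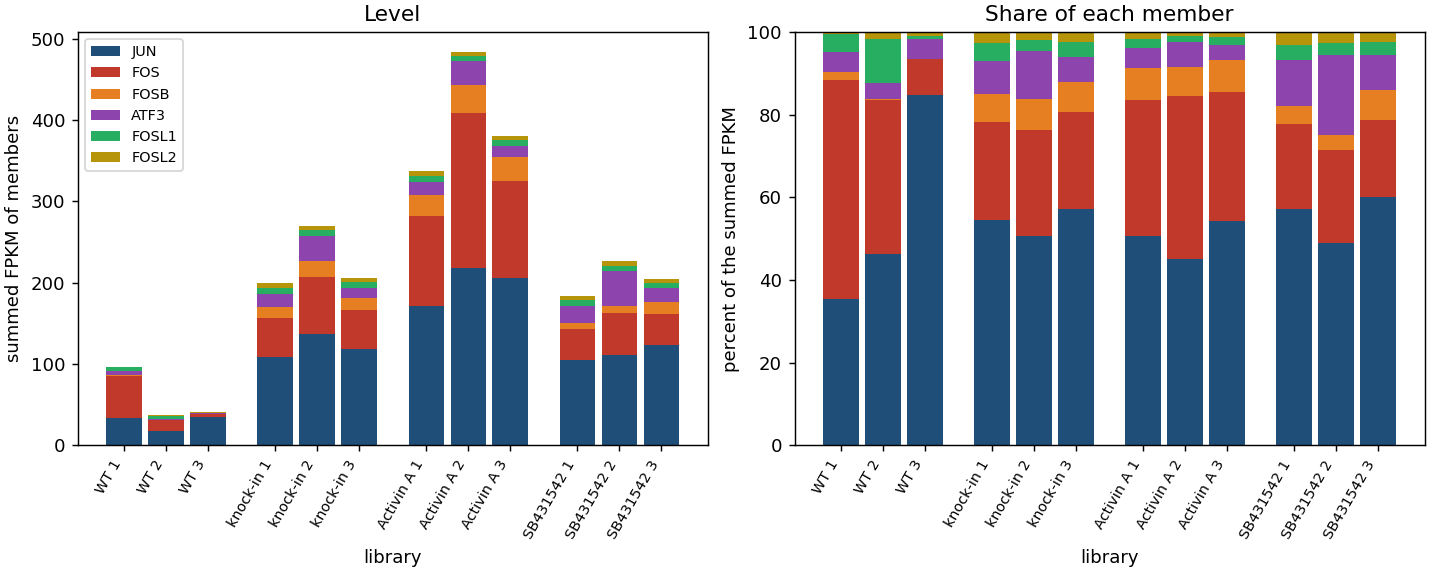
Summed FPKM of the members in each library (left) and the percent of that sum taken by each member (right); JUNB is too low to be seen. The sum was lowest in the WT libraries (36.8 to 96.1 FPKM) and highest in the Activin A libraries (337 to 484 FPKM), and JUN and FOS made up most of every bar.

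The spread of the members within WT was large for some genes and small for others. The SD of log2(FPKM + 1) over the 3 WT libraries was 1.77 for FOS, 1.14 for FOSL1, 0.82 for FOSB, 0.64 for ATF3, 0.56 for JUN and 0.17 for FOSL2, beside a median of 0.19 over all genes tested. An SD as large as that of FOS was found in 0.0642% of all genes tested in WT and one as large as that of FOSL1 in 0.328%. FOS varied 14.6-fold between the highest and the lowest WT library and FOSL1 14.9-fold, against 1.47-fold and 1.24-fold in knock-in. The WT libraries did not keep one order: FOS, FOSB, FOSL1 and ATF3 were highest in library 1, JUN was lowest in library 2, and FOSL1 was low in library 3 alone. With Activin A and SB431542 the SD of FOS was 0.42 and 0.24. ATF3 had a like SD in every group, from 0.54 to 0.70.

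**Figure D4:**
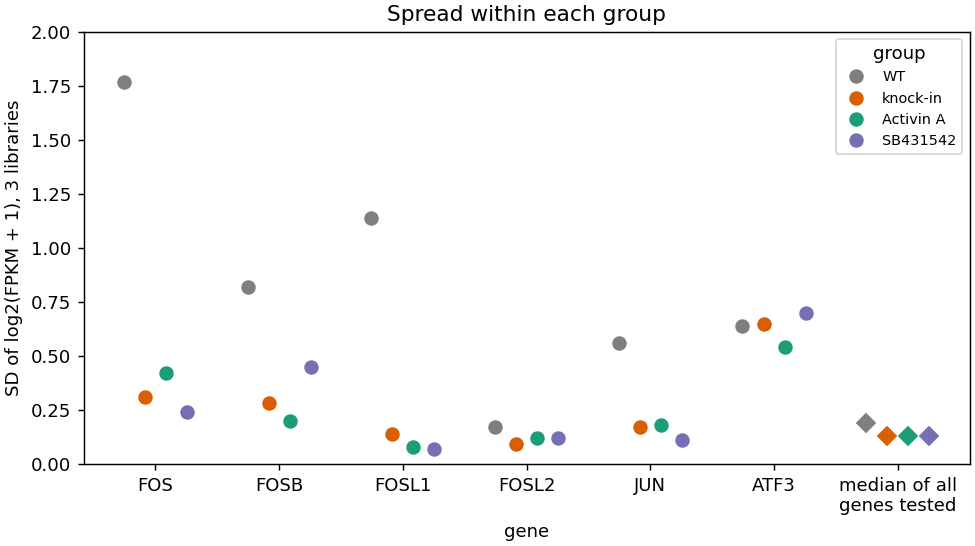
SD of log2(FPKM + 1) over the 3 libraries of each group for each member, with the median SD of all genes tested as diamonds. FOS (1.77), FOSL1 (1.14) and FOSB (0.82) stood highest in WT, while FOSL2 (0.17) was near the WT median of 0.19.

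Other immediate-early genes were read beside the members. Of 20 such genes tested, 11 were called higher in knock-in than in WT and 0 lower. Of all genes, 1.61% were called higher and 0.706% lower. The median log2 fold change of the 20 was 1.52. The largest changes were those of ARC, a synaptic immediate-early gene (3.95), EGR3, a zinc finger factor (3.55), NR4A1, an orphan nuclear receptor (3.42, limma adjusted p = 0.00198), and CCN1, a secreted matrix protein (3.06, limma adjusted p = 0.0219). EGR1, named after its values were seen, had a WT pattern like that of FOS, with 183, 64.6 and 14 FPKM in WT libraries 1, 2 and 3 and 65.3, 118 and 123 FPKM in knock-in, and it was not called (limma adjusted p = 0.536). In the Activin A comparison limma called 0 of the 20, with 10 at an unadjusted p under 0.05, against 12.8% of all genes. With the block it called 3, all higher with Activin A, against 0.521% of all genes called higher. These were EGR1 (log2 fold change 1.69, limma adjusted p = 0.0266), CCN2 (1.62 and 0.0445) and EGR2 (1.38 and 0.015). IER5 had the smallest adjusted p without the block (1.36, limma adjusted p = 0.102).

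Genes upstream of FOS and JUN were also listed. SRF, which encodes serum response factor, was 23.7, 22.6 and 24.6 FPKM in WT and 103, 96.5 and 122 FPKM in knock-in, which is a difference of 2.13 in log2(FPKM + 1) (limma adjusted p = 0.0006, standard error 0.11). It was 81.7, 76.3 and 108 FPKM with Activin A and 98.1, 88.4 and 119 FPKM with SB431542. Its difference between these was -0.20 (limma adjusted p = 0.637), and its part in the levels of AP-1 genes was not tested. Of the 7 genes of SRF and its cofactors tested, FHL2 was the only other one called in knock-in (1.39, limma adjusted p = 0.0333). Of all genes, 1.61% were called higher there. In the Activin A comparison 0 of the 7 were called, and 1 had an unadjusted p under 0.05. Of 21 JNK, ERK and p38 kinase genes, limma called 0 in either comparison, with or without the block. In knock-in against WT, 5 had an unadjusted p under 0.05, and the share of all genes at that level is not given here. In the Activin A comparison 3 had one, against 12.8% of all genes. MAPK9, a JNK, had a log2 fold change of -0.57 (limma adjusted p = 0.0383) and RPS6KA1, a kinase below ERK, one of 0.58 (limma adjusted p = 0.0426) in knock-in, both under the threshold on size. In the Activin A comparison MAPK10, another JNK, had the smallest adjusted p of these kinases (0.126, log2 fold change -0.72).

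Among 17 other dimer partners tested, 2 small MAF factors were called higher in knock-in and 0 lower, against 1.61% of all genes called higher. These were MAFF (log2 fold change 2.40, limma adjusted p = 0.037) and MAFK (2.26, limma adjusted p = 0.00427). MAFF was 5.15, 0.737 and 0.732 FPKM in WT, again highest in library 1, and 10.8, 20.2 and 9.96 FPKM in knock-in. In the Activin A comparison limma called 0 of 16, with 4 at an unadjusted p under 0.05, against 12.8% of all genes. ATF2, a partner of JUN, had a log2 fold change of -0.34 (limma adjusted p = 0.266).

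Of 20 genes tested from a list of textbook AP-1 targets, 3 were called higher in knock-in, against 1.61% of all genes. These were DUSP5, a nuclear phosphatase of ERK (log2 fold change 2.76, limma adjusted p = 0.00485), DCN, a matrix proteoglycan (1.49, limma adjusted p = 0.0312), and CCND1, cyclin D1 (1.16, limma adjusted p = 0.00198). The list had a median log2 fold change of 0.50 there and of -0.06 in the Activin A comparison. In that comparison limma called 0 without the block, with 6 at an unadjusted p under 0.05, against 12.8% of all genes. With the block it called 1, FST, which encodes the Activin antagonist follistatin (1.28, limma adjusted p = 0.0121), against 0.521% of all genes called higher. Of 6 SMAD target genes tested, SMAD7 (1.80, limma adjusted p = 0.0237) and LEFTY2 (1.07, limma adjusted p = 0.0424), both inhibitors of the pathway, were called higher with Activin A. Of all genes, 0.0571% were called higher. LEFTY2 was listed at 0 in the 3 SB431542 libraries. ID1, an inhibitor of basic helix-loop-helix factors, was the one called in knock-in against WT (1.56, limma adjusted p = 0.0231).

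Dissociation of cells is known to raise immediate-early and heat shock genes. The 13 heat shock genes with a row summed to 2635 to 2892 FPKM in WT, 2589 to 2864 FPKM in knock-in, 2475 to 2811 FPKM with Activin A and 2421 to 2689 FPKM with SB431542. Limma called 0 in either comparison. In knock-in against WT, 0 had an unadjusted p under 0.05, and the share of all genes is not given here. In the Activin A comparison 1 had one, against 12.8% of all genes. HSPB1 had the smallest adjusted p in knock-in against WT (0.66, limma adjusted p = 0.241). The 11 fibroblast or feeder markers summed to 34.4 to 46.6 FPKM in WT, 67.4 to 98.4 FPKM in knock-in, 85.3 to 127 FPKM with Activin A and 54.4 to 60.2 FPKM with SB431542. As for the members, WT lay below the other groups. Within groups the 2 sums did not keep 1 order. With Activin A the markers summed to 88.7, 85.3 and 127 FPKM in libraries 1, 2 and 3, and the members to 337, 484 and 380 FPKM. With SB431542, too, library 2 was lowest for the markers and highest for the members, whereas in WT it was lowest for both. FBLN1, at 21.8 to 49.2 FPKM, was the highest of them in every library. Of the 8 tested, 6 had a log2 fold change above 0 in knock-in against WT. TWIST2 and DCN were called higher, against 1.61% of all genes, while COL1A1 (-0.39) and PDGFRA (-0.16) were below 0. In Activin A against SB431542, 5 of 8 were above 0, and TWIST2 (-0.74), COL1A1 (-0.10) and PDGFRA (-0.01) were below it. Here 0 were called without the block and 2 with it (COL3A1 and COL1A2, both higher, with log2 fold changes of 3.08 and 1.59). Of all genes, 0.521% were called higher with the block. An unadjusted limma p under 0.05 was found for 3 of the 8 and for 12.8% of all genes. FAP was listed at 0 in 12 libraries and POSTN in 9. Markers of pericytes, the cells of origin, summed to 30 to 33.2 FPKM in WT, 54.3 to 57.7 FPKM in knock-in, 46.3 to 53.7 FPKM with Activin A and 62.9 to 65.2 FPKM with SB431542. Of 9 tested, 8 had a log2 fold change above 0 in knock-in against WT, among them KCNJ8 (0.04), and ACTA2 and PDGFRB were called higher; MCAM (-0.02) was below 0. DES, not tested, was 0.724, 0.481 and 0.0697 FPKM in WT and at most 0.0621 FPKM in knock-in. In Activin A against SB431542, ACTA2 was called lower, as were 0.0357% of all genes, and 3 of 9 were above 0, RGS5 (0.63), NOTCH3 (0.41) and CSPG4 (0.08). The parts of dissociation and of these cell types in the levels of AP-1 genes were not tested.

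Across the 12 libraries, the members' mean profile was most like those of IER2, an immediate-early gene (Pearson r = 0.993), CCN1 (0.986), SERTAD1 (0.977), NR4A1 (0.973) and EGR3 (0.97), among 10495 genes with a symbol and a mean of at least 1 FPKM. FOS alone was most like SLC25A3 (0.943), EGR2 (0.943), SPRY2 (0.941), DUSP6 (0.936) and PDXK (0.931). IER2 stood at 54.4, 20.4 and 16.3 FPKM in WT, at 126 to 180 FPKM in knock-in, at 165 to 226 FPKM with Activin A and at 110 to 138 FPKM with SB431542. Among the members, the highest correlation was that of FOSB with JUN (0.968) and the lowest that of FOSL1 with JUN (0.656). These correlations describe 12 libraries that fall into WT and knock-in derived cells, share a scaling to library size and differ in depth, and no test was made of them.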

How the data were processed

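RNA sequencing of 12 libraries, 3 in each of 4 groups, was read from 2 tables of 24358 genes that the authors deposited as FPKM. Per the study's methods, the authors trimmed the reads (Trim Galore), used HISAT2 2.0.4 to place them on Ssc11.1, and obtained FPKM from StringTie 1.3.3 with an Ensembl annotation. Their own tests were made on read counts, which were not used here, and depth is therefore unknown beyond relative values. Whether reads were counted by strand is not given in the sources used here.

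Tests were made within each table. A gene entered if 3 of the 6 libraries reached 0.1 FPKM; its values were taken as log2(FPKM + 1), and limma 3.58.1 was fitted with a variance trend in R 4.3.3. Calls needed a difference of 1 or more in log2, up or down, and a p no higher than 0.05 after Benjamini-Hochberg adjustment. Sums and single genes were given exact two-sided permutation tests. Figures were drawn with matplotlib 3.10.9.

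Library numbers come from the sample labels. Deviations from group means, over 13891 genes, correlated between Activin A and SB431542 libraries of the same number at 0.401, 0.588 and 0.536, so the numbers were taken to pair these samples. The knock-in libraries bear the names of 3 separately transfected lines. Nothing says whether the WT libraries came from separate cultures, so their spread, and with it the p-values of that comparison, may be in part technical. For the treated cells, the labels give a number and no line; their libraries correlated with the knock-in library of the same number at 0.506, 0.637 and 0.664 (Activin A) and 0.516, 0.631 and 0.569 (SB431542), and each pair of unlike numbers among these 3 groups was below 0, to which centring on means of 3 contributes.

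Symbols were those of the tables, with 965 genes named from a table of Ensembl identifiers. Members and lists were chosen with earlier results of these data known. Named genes are all members, the 4 called genes of each list with the largest change, or the 2 with the smallest adjusted p where none was called, and the 5 genes most like the members and most like FOS. Alternatives were other pseudocounts, filters and scalings, no variance trend, the block, the adjusted p alone, and leaving out each library; leaving out libraries from the ratios of means was added after seeing the data. One gene that this rule names is not reported here.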

Additional observations from a re-analysis of the deposited data

How the results depend on the processing

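Knock-in against WT, the called members numbered 4 and stayed between 3 and 5 under all alternatives; FOSB, FOSL2 and JUN kept their calls in each. FOS ranged from 0.99 to 2.76 and ATF3 from 2.12 to 2.85 with single libraries left out. The replicate block took ATF3 out of the calls (2.49, with an adjusted p that rounds to 0.05). Same-numbered libraries of these groups correlated at only -0.0175, 0.01 and 0.095, so no pairing by number was seen. Whether they shared a culture day or a batch is not known. Over all genes, 324 were called with the settings used, 538 with a pseudocount of 0.1, 501 with 0.01, 199 without the filter, 1012 by adjusted p alone, 232 with the block and 145 to 446 with single libraries left out.

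In Activin A against SB431542, the replicate block was the one alternative that called members, 2 in place of 0, FOS (1.68) and FOSB (1.46). Over all genes 13 were called, 99 with the block, 8 with a pseudocount of 0.01, 5 without the filter, 5 with a filter of 1 FPKM, 7 without the variance trend and 0 to 5 with single libraries left out. The study's own tests on read counts, at like thresholds, reported more genes than these fits in both comparisons. The block changed no other call of a member. Summed levels kept their direction throughout, at 1.83 to 2.53 and 0.81 to 1.07 on the log2 scale with single libraries left out. Low values in WT are limited by its lower relative depth.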
